A study of Mus musculus with 21 samples.

Results

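Enolase 3 (Eno3) and 9 other glycolytic enzymes were followed in mouse muscle stem cells. They were chosen by gene symbol in the array values: Eno3, Eno1, Pgk1, Tpi1, Ldha, Aldoa, Pfkm, Pfkp, Hk1 and Hk2. Each was read on its brightest probeset among those with exactly 1 gene symbol, with repeated arrays of a pool averaged. Eno1, the widely expressed enolase, had no such probeset and was not analysed here, so that 9 of the 10 genes were measured, out of 19938 genes named on the array. All 9 were above the filter on dim genes, which 13956 genes passed. The list was drawn up with the difference between contralateral and noninjured wild-type cells already known, and that difference is therefore described here and not tested.

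Glycolysis turns glucose into pyruvate in the cytosol. Hexokinases trap glucose as a phosphate, phosphofructokinase commits it to the pathway, aldolase and triosephosphate isomerase produce the triose phosphates, phosphoglycerate kinase and pyruvate kinase make ATP, and enolase forms the substrate of pyruvate kinase. Lactate dehydrogenase then reduces pyruvate to lactate. Several steps have an isoform that is abundant in skeletal muscle beside a form found in most cells. Eno3 is the enolase of mature muscle and replaces Eno1 as muscle differentiates, Pfkm is the muscle phosphofructokinase beside the platelet form Pfkp, and Hk2 is the insulin-responsive hexokinase of muscle beside the widespread Hk1.

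The cells were sorted from hindlimb muscle as YFP-positive cells and were not cultured. All mice carried Pax7CreER/+;Rosa26REYFP/+, a Cre that is driven in Pax7-expressing cells and a reporter that it switches on, and were given tamoxifen at least 2 weeks before. They were 3 to 5 months old and of mixed C57BL6 background, except the cMet knockouts, which were C57BL6 mixed with FVB. Quiescent satellite cells (QSC) came from noninjured mice, and contralateral satellite cells (CSC) from the uninjured hindlimb of mice whose other hindlimb had received barium chloride, 2.5 or 28 days after that injury. WT mice carried no further allele, and the knockouts (KO) added TSC1flox/flox, Rptrflox/flox or cMetflox/flox. TSC1 restrains the growth kinase complex mTORC1, Rptor (raptor) is a subunit that mTORC1 needs, and cMet is the receptor of hepatocyte growth factor. WT QSC were measured in 3 pools (5 arrays), as were WT CSC at 2.5 days (4 arrays). The 6 groups with 1 pool on 2 arrays were the noninjured cells of each of the 3 knockouts, the 2.5-day contralateral cells of the Rptor KO and of the cMet KO, and the 28-day contralateral cells of WT. A pool held 3 to 4 mice.

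All levels below are log2 array signals, and a difference of 1 is a doubling. A level is never compared between genes, since probesets differ in brightness. Differences carry the standard error (SE) of a limma fit over the 12 pools, and a gene passed the test at an adjusted p under 0.05 over all 13956 genes. Groups of 1 pool have no spread of their own and borrow that of the WT pools, so that an effect of genotype or time and a peculiarity of that pool cannot be told apart. In a bulk sample, fewer cells of a type and less RNA per cell cannot be told apart either.

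All 11 satellite cell markers were above the filter, with mean signals from 10.31 for Heyl to 12.57 for Sdc4. Markers of other cells were read as well. Endothelial markers had means from 7.19 for Erg to 10.13 for Cdh5, and fibro-adipogenic markers from 6.81 for Pi16 to 11.88 for Dpt. Acta2 of smooth muscle was at 12.07. Arrays of the same pool correlated at 0.957 to 0.996, the lowest in Rptor KO CSC. Tsc1 was at 8.16 in TSC1 KO QSC and 8.34 to 8.69 in WT QSC. Rptor was at 9.19 in Rptor KO QSC, within the WT QSC range of 8.91 to 9.58, and Met at 10.25 in cMet KO QSC, above the WT QSC range of 9.93 to 10.11. In contralateral cells at 2.5 days, Rptor was at 8.85 in the Rptor KO and 9.43 to 9.84 in WT. Met was at 10.13 in cMet KO CSC and 10.63 to 10.94 in WT CSC. A probeset sums probes along the transcript while a floxed allele can remove only some exons, and these levels do not check the genotypes.

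The sequences upstream of 4 genes that were higher together in WT CSC at 2.5 days are shown for their short motifs: Eno3, Pgk1 and Tpi1, with the widest differences among the chosen genes, and Ldha, the last step. Each is the 250 bases before the RefSeq start of the transcript, in build GRCm38.p6 and on the strand of the gene. Eno3 lies at chr11:70656926-70657175 (plus strand), Pgk1 at chrX:106186850-106187099 (plus), Tpi1 at chr6:124814159-124814408 (minus) and Ldha at chr7:46845554-46845803 (plus, the upstream of its listed starts). Capitals mark ACGTG on either strand (CACGT as printed on the opposite strand), the core of elements bound by hypoxia-inducible factors, and CANNTG, the E-box read by basic helix-loop-helix factors such as the myogenic ones. A CACGTG holds ACGTG on both strands and is also a CANNTG.

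Eno3: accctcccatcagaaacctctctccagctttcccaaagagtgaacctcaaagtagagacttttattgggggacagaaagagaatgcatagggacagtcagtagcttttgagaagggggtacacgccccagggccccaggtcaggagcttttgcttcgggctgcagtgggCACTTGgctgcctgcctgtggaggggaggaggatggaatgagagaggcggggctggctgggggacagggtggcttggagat
Pgk1: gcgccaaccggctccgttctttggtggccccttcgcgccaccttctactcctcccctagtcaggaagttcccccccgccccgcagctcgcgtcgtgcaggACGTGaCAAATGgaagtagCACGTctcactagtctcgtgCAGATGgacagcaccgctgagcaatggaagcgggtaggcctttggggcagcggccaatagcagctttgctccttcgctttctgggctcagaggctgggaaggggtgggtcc
Tpi1: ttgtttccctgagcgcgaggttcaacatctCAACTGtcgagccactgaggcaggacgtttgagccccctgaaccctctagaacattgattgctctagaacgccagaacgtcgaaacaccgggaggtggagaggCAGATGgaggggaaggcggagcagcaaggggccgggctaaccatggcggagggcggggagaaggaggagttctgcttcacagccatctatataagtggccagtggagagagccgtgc
Ldha: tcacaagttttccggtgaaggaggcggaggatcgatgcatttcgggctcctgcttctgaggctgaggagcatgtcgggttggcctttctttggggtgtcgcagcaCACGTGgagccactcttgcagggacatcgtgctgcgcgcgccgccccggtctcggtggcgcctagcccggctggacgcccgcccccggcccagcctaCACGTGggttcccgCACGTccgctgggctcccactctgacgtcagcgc

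The Eno3 window held 1 CANNTG and 0 ACGTG, and the Tpi1 window 2 CANNTG and 0 ACGTG. The Pgk1 window held 2 of each. The Ldha window held 5 ACGTG counted over both strands, among them 2 CACGTG. Over all starts listed for the 10 genes, 7 of 19 windows held ACGTG and 14 of 19 held CANNTG, against 16.6% and 66.2% of the 32851 windows of all genes. Windows of nearby starts of a gene overlap and can count a match more than once. By gene, 8 of the 10 held CANNTG in at least 1 window and 5 held ACGTG, namely Aldoa, Hk2, Ldha, Pfkm and Pgk1. These are matches of letters and not sites of binding.

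Eno3 was the gene with the largest difference between WT CSC at 2.5 days and WT QSC among all genes tested, and no knockout pool came near the contralateral WT level. Its signal was 8.65, 8.10 and 8.49 in the 3 WT QSC pools and 12.05, 11.83 and 12.14 in the 3 WT CSC pools. The groups were far apart and each was tight. The means were 8.41 ± 0.29 and 12.01 ± 0.16 (SD, n = 3 pools each), a difference of 3.59 ± 0.17 (SE), or 12.1-fold.

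The other pools placed Eno3 much lower. It was at 7.78 in WT CSC at 28 days, the lowest pool of all. The noninjured knockouts were at 9.38 (TSC1 KO), 8.16 (Rptor KO) and 8.18 (cMet KO), and the contralateral knockouts at 9.53 (Rptor KO) and 8.98 (cMet KO). From high to low the order was thus WT CSC, Rptor KO CSC, TSC1 KO QSC, cMet KO CSC, WT QSC, cMet KO QSC, Rptor KO QSC and WT CSC at 28 days. Rptor KO CSC and TSC1 KO QSC lay closer together than the SD of the WT QSC pools, and cMet KO QSC and Rptor KO QSC lay within the range of the WT QSC pools. Both arrays of a pool gave nearly the same Eno3 signal, with a largest gap of 0.25.

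**Figure D1:**
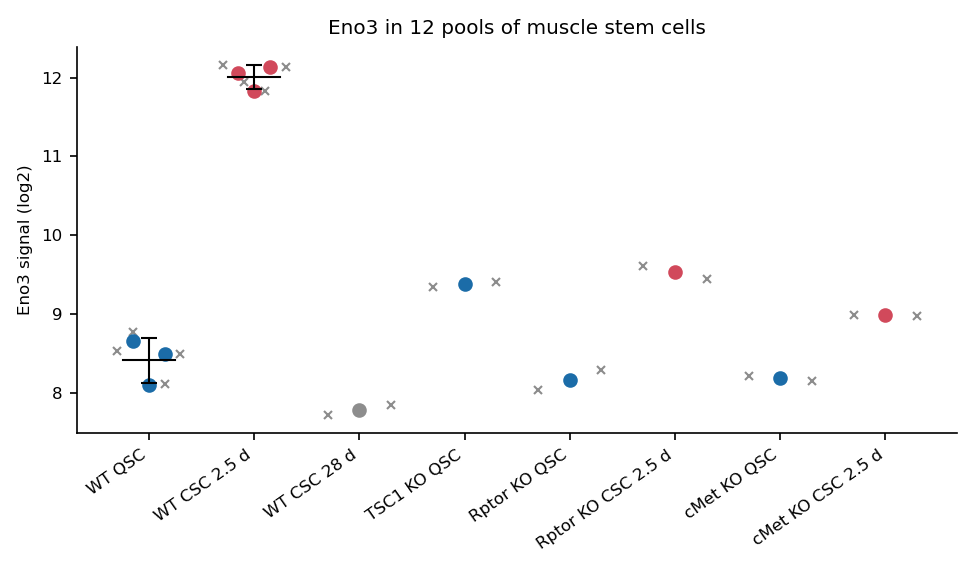
Eno3 signal (log2, vertical axis) in the 8 groups. Filled points are pools, crosses are single arrays, and bars give the mean and SD where a group has 3 pools. The WT CSC pools at 2.5 days lie at 11.83 to 12.14, above the highest other pool at 9.53.

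Aldoa, Tpi1, Pgk1 and Ldha were higher along with Eno3 in WT CSC, while Hk1, Hk2, Pfkm and Pfkp overlapped with WT QSC. The WT CSC pools thus lay wholly above the WT QSC pools for 5 of the 9 genes and overlapped them for 4. Over all genes tested they lay wholly above for 18.7% and did not overlap in either direction for 37.9%. The median difference was 0.57 over the 9 genes and -0.05 over all genes. Because the list was chosen with this comparison known, nothing is read from these shares.

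Pgk1, the phosphoglycerate kinase that makes the pathway's first ATP, was at 10.39, 10.65 and 10.90 in WT QSC and 12.02, 12.22 and 12.32 in WT CSC. The difference was 1.54 ± 0.16, or 2.9-fold, and the other 2 probesets of Pgk1 each gave 1.56. Tpi1, triosephosphate isomerase, was at 9.94, 9.55 and 9.74 in WT QSC and 11.18, 11.20 and 11.32 in WT CSC, a difference of 1.49 ± 0.14 (2.81-fold). Neither gene's groups overlapped, and the lowest CSC pool stood well clear of the highest QSC pool.

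Aldoa, the aldolase of muscle and most other tissues, was at 12.16, 11.89 and 12.19 in WT QSC and 12.80, 12.65 and 12.70 in WT CSC, a difference of 0.63 ± 0.13 (1.55-fold). Ldha, which makes lactate, was at 12.25, 12.16 and 12.26 in WT QSC and 12.75, 12.78 and 12.85 in WT CSC, a difference of 0.57 ± 0.12 (1.48-fold). The groups of these bright genes did not overlap, but the differences were small. Pgk1, Tpi1, Aldoa and Ldha have processed copies elsewhere in the mouse genome, and how far their probes share those copies was not tested.

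The muscle and platelet phosphofructokinases, Pfkm and Pfkp, overlapped between the WT groups, and so did both hexokinases. Pfkm was at 8.81, 8.02 and 8.15 in WT QSC and 8.19, 8.25 and 8.17 in WT CSC, a difference of -0.12 ± 0.20 whose 95% interval was -0.58 to 0.33. Pfkp was at 10.56, 10.46 and 10.50 against 10.36, 10.49 and 10.43, a difference of -0.08 ± 0.12 (-0.35 to 0.19). Like those of the hexokinases below, these intervals are a description, since the genes were chosen with this comparison known.

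Hk2 was at 10.47, 9.85 and 10.75 in WT QSC and 10.21, 10.70 and 10.39 in WT CSC, a difference of 0.08 ± 0.23 (95% interval -0.45 to 0.60). Hk1 on its brightest probeset was at 13.01, 13.39 and 13.28 against 12.73, 13.32 and 13.19, a difference of -0.15 ± 0.18 (-0.56 to 0.26). The Hk1 reading is uncertain. The platform table gives the brightest probeset the same accession as 16 probesets that list both Rpl17, a ribosomal protein gene, and Hk1. Over the 12 pools it correlated with those at 0.82 to 0.89, and at -0.22 with the other Hk1 probeset, which carries RefSeq accessions. That other probeset was at 10.53, 9.62 and 10.05 in WT QSC and 9.77, 9.72 and 9.65 in WT CSC, a difference of -0.35 ± 0.21 with overlapping groups.

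**Figure D2:**
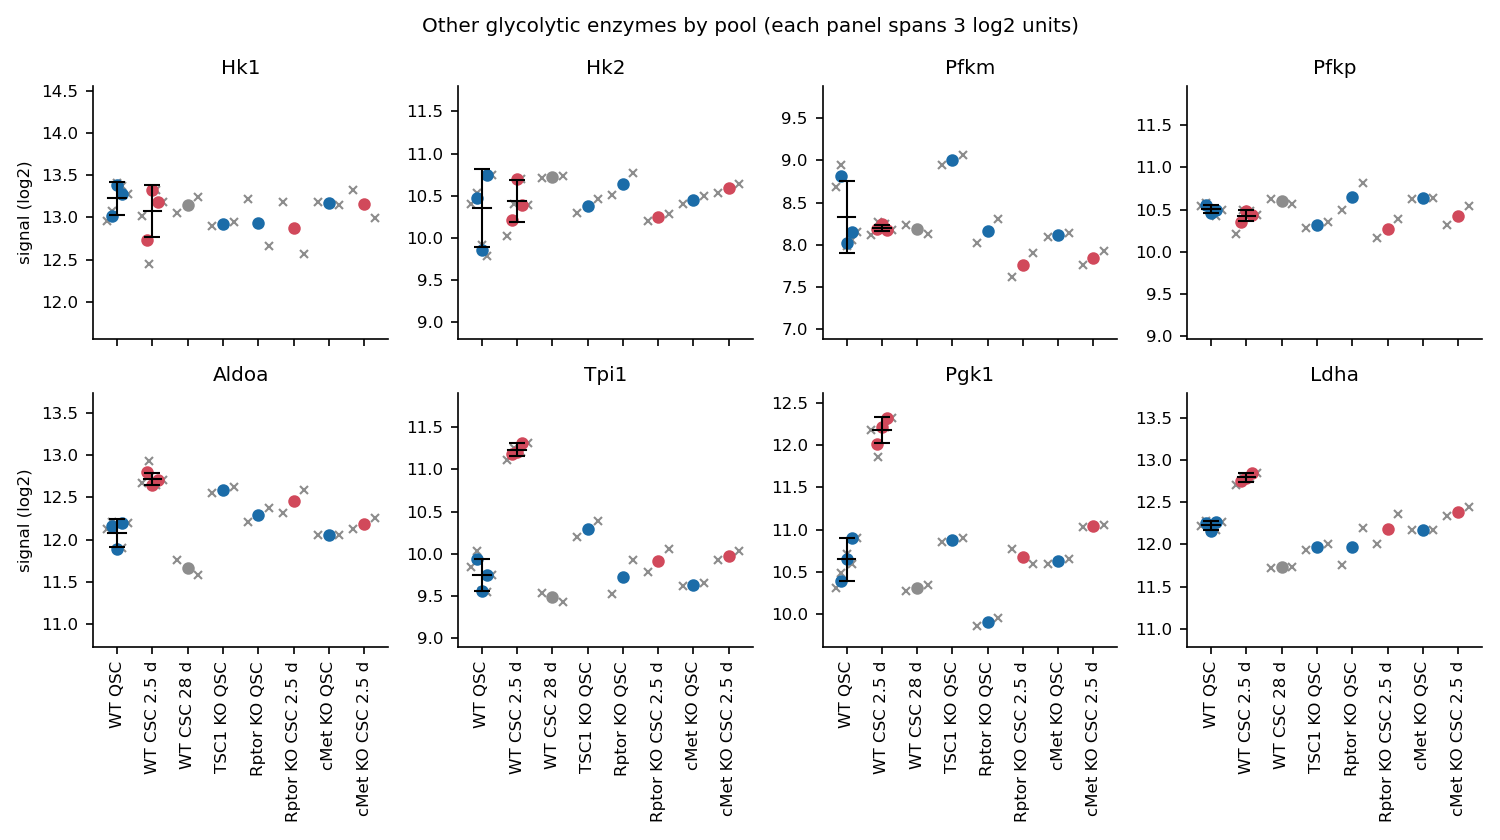
Signals (log2, vertical axes) of the 8 other measured enzymes in the 8 groups, in pathway order, with each panel spanning the same number of log2 units. Filled points are pools, crosses are arrays, bars are mean and SD of 3 pools. Tpi1 and Pgk1 stand 1.49 and 1.54 higher in WT CSC than in WT QSC, Aldoa and Ldha 0.63 and 0.57, while Hk1, Hk2, Pfkm and Pfkp overlap.

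The changes of muscle forms were set against those of their widespread counterparts. The change of Pfkm minus that of Pfkp, relative to WT QSC, was -0.04 ± 0.05 in WT CSC (SD, n = 3 pools), against a spread of 0.38 among the WT QSC pools. It was 0.87 in TSC1 KO QSC and lay between -0.40 and -0.24 in the 5 other single pools. The change of Hk2 minus that of Hk1 was 0.22 ± 0.14 in WT CSC against a spread of 0.57 (SD) in WT QSC, and ran from 0.15 to 0.57 in the single pools. With the other Hk1 probeset it was 0.43 ± 0.27 in WT CSC against a spread of 0.39 in WT QSC, -0.55 in TSC1 KO QSC and 0.28 to 0.64 in the 5 other single pools, so that its direction in TSC1 KO QSC depends on the probeset. For enolase the set held no measured widespread form. Eno2, the neuronal enolase, was at 6.40 to 7.05 in WT QSC and 6.40 to 6.62 in WT CSC, close to the filter of 6.45. The change of Eno3 minus that of Eno2 was 3.77 ± 0.24 in WT CSC.

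At 28 days the 5 genes that stood higher at 2.5 days were all below WT QSC. Of the 9 genes, 0 passed against WT QSC, as did 0 of all 13956 (0.00%), with 637 at an unadjusted p under 0.05. Eno3 differed by -0.63 ± 0.24 from WT QSC, Ldha by -0.50 ± 0.17, Aldoa by -0.42 ± 0.19, Pgk1 by -0.34 ± 0.23 and Tpi1 by -0.26 ± 0.20. The pool lay below each of the 3 WT QSC pools for these 5 genes. How many of all genes lay so in this pool was not counted, and nothing is read from that position. Pfkm, Pfkp, Hk1 and Hk2 differed by -0.14 to 0.36. Markers of other cells were read in the same pool. All 12 endothelial markers were below the WT QSC mean (median -1.16, summed linear signal 3253 against 6228 to 9867 in WT QSC), as were 14 of 15 mature fibre markers (median -0.40), and 0 of either list passed. Their part in the differences of the glycolytic genes was not tested. This comparison and those of the noninjured knockouts with WT share the WT QSC pools with the 2.5-day comparison.

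Noninjured TSC1 KO cells held Eno3, Tpi1, Aldoa and Pfkm above every WT QSC pool. Eno3 differed from WT QSC by 0.96 ± 0.24, Pfkm by 0.68 ± 0.28, Tpi1 by 0.55 ± 0.20 and Aldoa by 0.50 ± 0.19. Pgk1 differed by 0.23 ± 0.23 and lay just inside the WT range, and Ldha differed by -0.26 ± 0.17, below every WT QSC pool. Pfkp at 10.32 and Hk1 at 12.92 were also below every WT QSC pool, while the other Hk1 probeset, at 10.64, was above every one. How many of all genes lay outside the WT QSC range in this pool was not counted, and nothing is read from these positions. Of the 9 genes 0 passed, as did 2 of all genes (0.0143%). The linear signals of 18 mature fibre markers summed to 9908 in this pool, against 3806 to 9041 in WT QSC and up to 9266 in WT CSC. By mean log2 signal over the same genes, which a few bright genes do not dominate, the pool was at 8.16, against 7.30 to 8.13 in WT QSC and up to 8.19 in WT CSC. Their part in the differences of the glycolytic genes was not tested.

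In the Rptor KO, noninjured cells held Pgk1 at 9.91, below every WT QSC pool, a difference of -0.74 ± 0.23. Eno3 differed by -0.25 ± 0.24, Ldha by -0.25 ± 0.17 and Aldoa by 0.20 ± 0.19. In cMet KO QSC all 9 genes lay within -0.23 to 0.13 of WT QSC. Again 0 of the 9 genes passed in either comparison, against 0.122% of all genes for Rptor KO QSC and 0.00% for cMet KO QSC.

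TSC1 KO and Rptor KO noninjured cells could be compared without any WT pool. Eno3 was at 9.38 in the first and 8.16 in the second, a difference of 1.22 ± 0.29 that did not pass (limma, adjusted p = 0.0733). It passed under 4 of 16 alternative settings, among them the exclusion of WT QSC pool 1 (adjusted p = 0.0420) or pool 2 (0.0339), which supply the spread. Pgk1 differed by 0.97 ± 0.28 (adjusted p = 0.117), Pfkm by 0.84 ± 0.35 (0.233) and Tpi1 by 0.57 ± 0.24 (0.243). Ldha differed by -0.01 ± 0.20. Hk1 differed by -0.02 ± 0.31 on its brightest probeset and by 0.93 ± 0.37 (adjusted p = 0.214) on the other. Thus 0 of the 9 genes passed, against 1.55% of all genes.

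After a distant injury, Eno3 was higher in contralateral than in noninjured cells of both knockouts, but by less than in WT. In the Rptor KO it was at 9.53 in CSC and 8.16 in QSC, a difference of 1.37 ± 0.29 (2.58-fold, 95% interval 0.70 to 2.03) that did not pass (limma, adjusted p = 0.194). It passed with all arrays in the fit and the pool as a random block (adjusted p = 0.00737), where the 2 repeat arrays of each pool enter as observations, although each arm is still 1 pool. In the cMet KO it was at 8.98 and 8.18, a difference of 0.80 ± 0.29 (1.74-fold, 0.13 to 1.46, adjusted p = 1.00). These are 38.0% and 22.2% of the WT difference on the log2 scale. All 4 arrays of the contralateral knockout pools read above all 4 of their noninjured counterparts.

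The remaining enzymes gave smaller differences in the knockouts. Pgk1 differed by 0.77 ± 0.28 in the Rptor KO (adjusted p = 0.832) and 0.42 ± 0.28 in the cMet KO (adjusted p = 1.00), or 50.3% and 27.1% of the WT difference. Tpi1 differed by 0.19 ± 0.24 and 0.35 ± 0.24, or 12.8% and 23.4%. Ldha differed by 0.21 ± 0.20 and 0.22 ± 0.20, and Aldoa by 0.17 ± 0.23 and 0.14 ± 0.23. The repeat arrays of the Rptor KO QSC pool differed by 0.395 for Tpi1 and 0.439 for Ldha, more than the Rptor KO differences of these genes. For Tpi1, Ldha and Aldoa the single arrays of Rptor KO CSC and QSC overlapped. Pfkm and Pfkp differed by -0.41 to -0.20 in the knockouts and did not pass. Of the 9 genes 0 passed in either knockout, against 0.258% of all genes in the Rptor KO and 0.00% in the cMet KO, where 75 genes had an unadjusted p under 0.05.

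**Figure D3:**
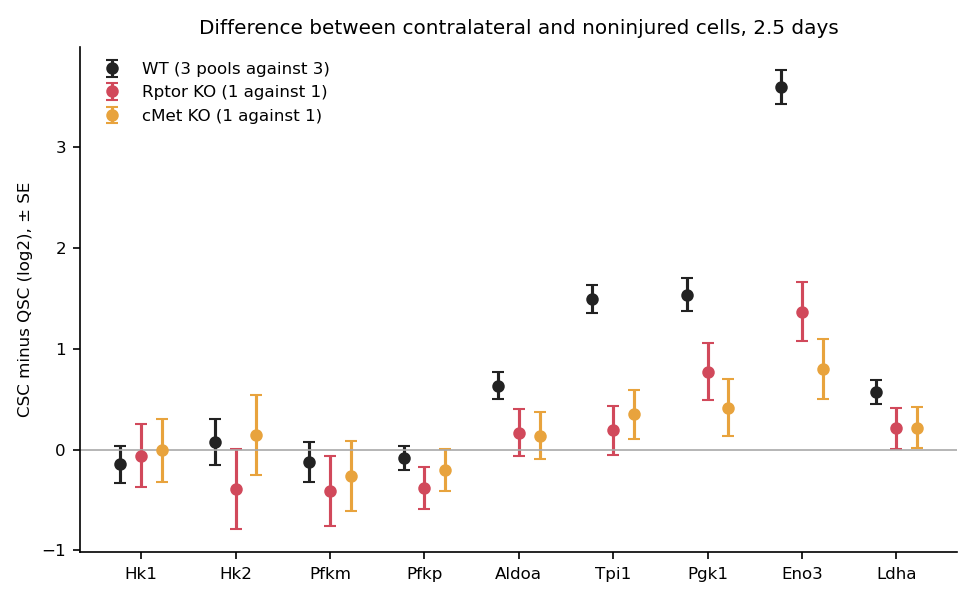
Difference between contralateral cells at 2.5 days and noninjured cells (log2, vertical axis) for the 9 measured enzymes in WT, Rptor KO and cMet KO, with bars of 1 SE. Eno3 reaches 3.59 in WT, 1.37 in Rptor KO and 0.80 in cMet KO, and Hk1, Hk2, Pfkm and Pfkp lie near or under 0 in WT.

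The difference between responses was largest for Eno3. The Rptor KO response minus the WT response was -2.23 ± 0.34, and the same quantity for the cMet KO was -2.79 ± 0.34. For Tpi1 these were -1.30 ± 0.28 and -1.14 ± 0.28, and for Pgk1 -0.76 ± 0.32 and -1.12 ± 0.32. Both contain the WT difference with which the genes were chosen, and neither a p nor a count of calls is given for them. Over all genes 0.00% passed for the Rptor KO and 0.158%, or 22, for the cMet KO, and the latter count was 0 under 9 of 16 alternative settings, the exclusion of any 1 WT CSC pool among them. The cMet KO mice also differ from WT in strain background, which cannot be told apart from the allele.

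Markers of other cells differed between the same pools. In the Rptor KO CSC pool the linear signals of 12 macrophage and monocyte markers summed to 12141, against 1512 to 3987 in the other 11 pools. Endothelial markers summed to 2901 to 4010 in WT CSC, 6228 to 9867 in WT QSC and 14061 in cMet KO CSC. Of 12 endothelial markers 8 fell in WT CSC, and so did 5 of 11 satellite cell markers, among them Pax7, 5 of 9 fibro-adipogenic markers (median -0.70) and 5 of 9 pericyte and smooth muscle markers (median -0.83). Over all genes tested, 7.36% fell and 10.6% rose in that comparison, 18.0% in all. Their part in the differences of the glycolytic genes was not tested.

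Mature fibres are rich in Eno3, and their markers were followed for that reason. Of 18 measured, 3 were under the filter, the fast myosins Myh2 and Myh4 and the fast light chain Mylpf. Mylpf was untested but stood at 5.76 to 6.38 in WT QSC and 6.90 to 7.90 in WT CSC, a difference of 1.27 without overlap. In WT CSC 10.6% of all genes rose and 7.36% fell. Of 15 fibre markers tested there 4 rose: Actn3 (1.38 ± 0.24), Tnnt3 (0.98 ± 0.24), Tnni2 (0.63 ± 0.16) and Casq1 (0.57 ± 0.16). Myh1, among the 15 but not past the test, lay above the filter through the WT CSC pools alone. Its mean over the other pools was 6.35, and nothing is read from its place in the list. Mylk2 fell by 0.83, a call lost without any of 5 of the 6 WT pools. The creatine kinase Ckm differed by -0.04 ± 0.29 (limma, adjusted p = 0.940) and Acta1, skeletal actin, by 0.42 ± 0.48 (adjusted p = 0.6002). The number that rose ran from 1 to 6 over the alternative settings, with 1 left without WT CSC pool 1 or pool 2. The summed fibre signal was 6703 to 9266 in the WT CSC pools and 3806 to 9041 in the WT QSC pools, which overlap, and the mean log2 signal of the same genes was 7.85 to 8.19 and 7.30 to 8.13. The part of fibre material in the Eno3 difference was not tested.

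**Figure D4:**
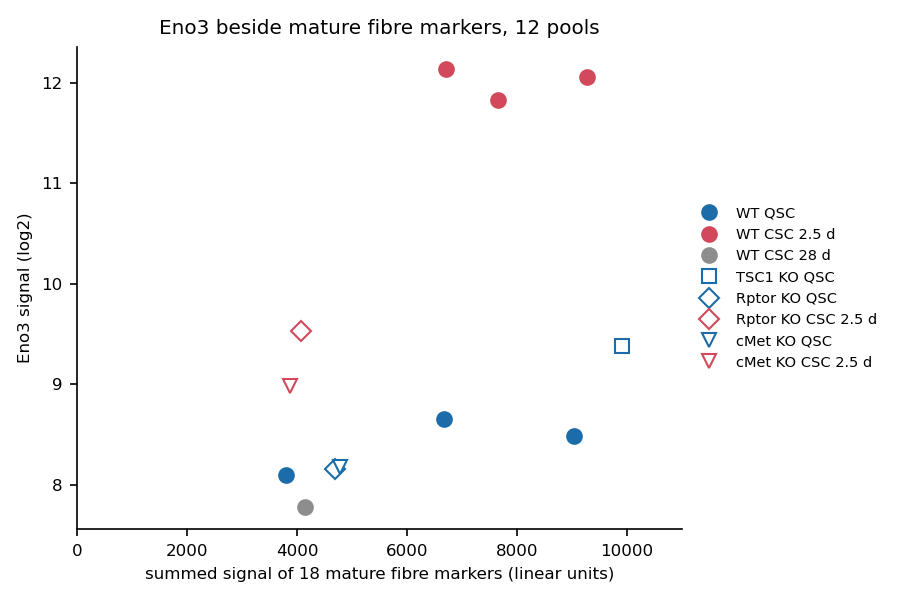
Eno3 signal (log2, vertical axis) against the summed linear signal of 18 mature fibre markers (horizontal axis) in the 12 pools. WT CSC pools span 6703 to 9266 on the horizontal axis and lie at 11.83 or above, while WT QSC pools with sums up to 9041 and the TSC1 KO QSC pool at 9908 lie at 9.38 or below.

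Of 18 tested genes of muscle differentiation, 7 rose and 1 fell in WT CSC, against 10.6% and 7.36% of all genes. Chrng (1.95 ± 0.32), Myh3 (1.92 ± 0.22), Tnnt2 (1.70 ± 0.26) and Tnni1 (1.65 ± 0.17) were among those that rose, and Chrna1 (1.26 ± 0.19) was next. Myh3 lay above the filter through the WT CSC pools alone, with 5.99 to 6.75 in WT QSC. Nothing is read from its call or from its place among the 7. Mef2c fell by 0.58, a call lost without any of 5 of the 6 WT pools. Myog, the myogenic factor of differentiation, differed by 0.44 ± 0.44 (limma, adjusted p = 0.540). Between TSC1 KO QSC and Rptor KO QSC, Myl4 (2.95 ± 0.38) and Myh8 (1.56 ± 0.28) passed and Myog did not (3.63 ± 0.76, adjusted p = 0.0538).

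Other enzymes of the pathway were followed from a list of 18 genes. Like the other gene lists here, this one was chosen with earlier results of these data known. The adjusted p values for these lists are therefore no independent test. In WT CSC, 4 of the 10 tested rose (limma): Pgam1, the phosphoglycerate mutase that feeds enolase (1.46 ± 0.21, adjusted p = 0.00273), Ldhb (0.84 ± 0.18, 0.0155), Pkm, the pyruvate kinase of most tissues (0.83 ± 0.14, 0.00508), and Pfkl, the liver phosphofructokinase (0.69 ± 0.17, 0.0224). Pgam1 was at 10.28, 9.39 and 9.72 in WT QSC and 11.41, 11.10 and 11.28 in WT CSC, so that its groups did not overlap. Pgam2, the muscle mutase, differed by 0.18 ± 0.17 and did not pass. The Ldhb call was lost without WT CSC pool 1 (adjusted p = 0.0531), and the Pfkl call without pool 2 (0.0924) or 3 (0.0845). Over all genes tested 10.6% rose. The list's median difference was 0.07, against -0.05 over all genes.

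Sugar transport and the regulation of flux were followed in WT CSC in the same way, where 18.0% of all genes passed. Of 6 transporters tested 0 rose or fell (limma, with 2 at an unadjusted p under 0.05), among them Slc2a1 (0.26 ± 0.17) and the insulin-regulated Slc2a4 (-0.31 ± 0.12) for glucose and Slc16a3 (-0.53 ± 0.27) for lactate. Of 11 regulators only Pdk3 rose, a kinase that inhibits pyruvate dehydrogenase (1.01 ± 0.15, adjusted p = 0.00246). The related kinases Pdk1, Pdk2 and Pdk4 differed by -0.40 ± 0.16, -0.74 ± 0.29 and -0.40 ± 0.13, and Pfkfb3, which makes the activator of phosphofructokinase, by -0.67 ± 0.22, none past the test. Of the 11 regulators 9 had negative differences and 7 an unadjusted p under 0.05.

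Branches beside the main path held 3 further rises among 13 genes of glycogen and sugar phosphate metabolism, against 10.6% of all genes. The list's median difference was -0.14, against -0.05 over all genes, and 5 of the 13 differences were positive. Gpd2, the mitochondrial glycerol phosphate dehydrogenase, rose by 1.32 ± 0.12 (limma, adjusted p = 0.000344). Gys1, muscle glycogen synthase, rose by 0.96 ± 0.19 (adjusted p = 0.0106) and Pgm1, phosphoglucomutase, by 0.86 ± 0.19 (0.0169), a call lost without WT CSC pool 1 (0.0671) or 3 (0.0512). Pygm, muscle glycogen phosphorylase, differed by -0.58 ± 0.19 and did not pass. Of 4 gluconeogenic genes 0 passed, and 0 had an unadjusted p under 0.05.

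Of 11 tested hypoxia-inducible targets outside glycolysis, 2 rose and 1 fell in WT CSC, against 10.6% and 7.36% of all genes, and the median difference was -0.13, against -0.05. Egln3, a prolyl hydroxylase, rose by 2.12 ± 0.19 (limma, adjusted p = 0.000288), from 8.08 to 8.38 in WT QSC to 10.07 to 10.73 in WT CSC. Bnip3 rose by 0.74 ± 0.14 (adjusted p = 0.00934). P4ha1 fell by 0.68 (adjusted p = 0.0330), a call lost without any of 5 of the 6 WT pools. Vegfa differed by -0.21 ± 0.15 and Ndrg1 by -0.13 ± 0.14.

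**Figure D5:**
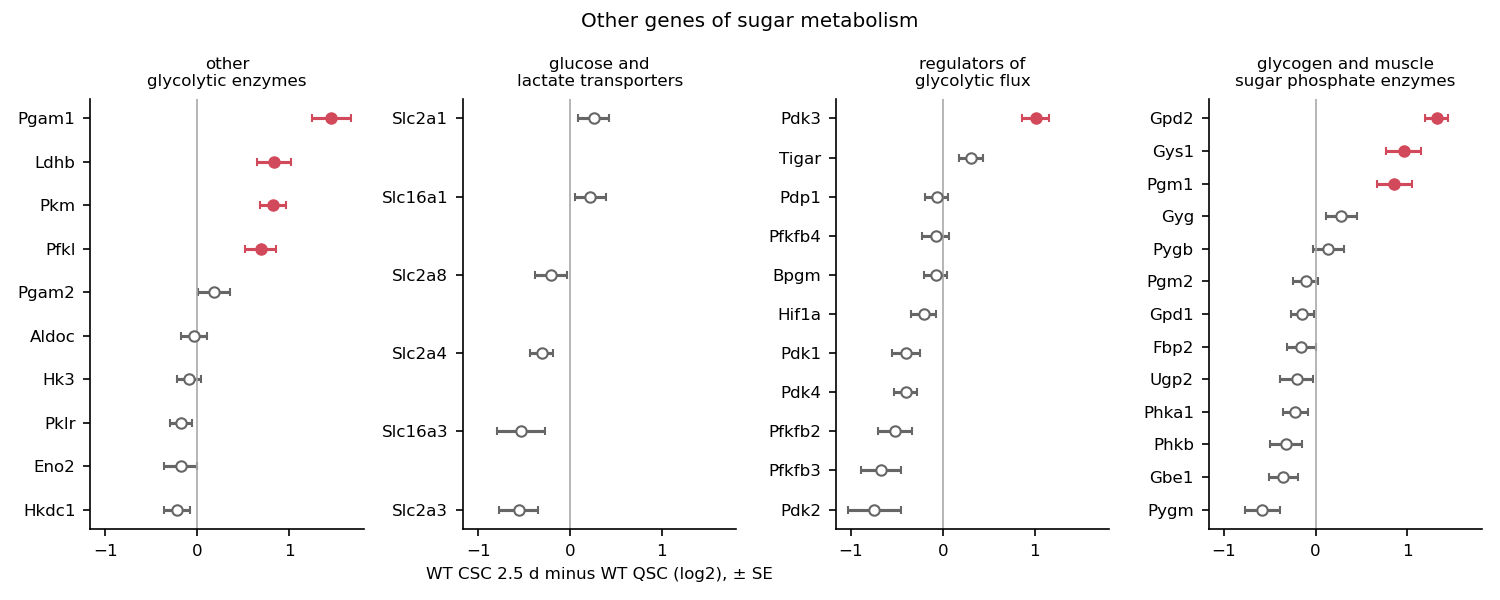
Difference between WT CSC at 2.5 days and WT QSC (log2, horizontal axes, bars of 1 SE) for 4 lists of sugar metabolism genes other than those chosen. Filled red points passed the test: Pgam1, Ldhb, Pkm and Pfkl, 0 transporters, Pdk3, and Gpd2, Gys1 and Pgm1.

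Genes most like Eno3 were sought over all genes tested by Pearson correlation of pool signals. Over the 12 pools these were Plk1, a mitotic kinase (r = 0.992), Mrpl19 (0.990), Dnph1 (0.988), Tpi1 (0.987), Nudt5 (0.986), Tomm22 (0.985), the mitotic kinase Aurka (0.984) and Mrpl37 (0.983). Over the 8 group means Tacc3 (0.993), Dnph1 (0.992), Pdap1, Nudt5, Nans (each 0.990), Plk1, Tspan14 (each 0.988) and Mrpl37 (0.984) were nearest. The 3 WT CSC pools stand apart from the rest and set much of such a value.

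Without the WT CSC pools, over 9 pools, Dnph1 still followed Eno3 at 0.960, Plk1 at 0.932, Tpi1 at 0.873 and Aldoa at 0.853. Pgk1 dropped from 0.938 to 0.543 and Ldha from 0.888 to 0.391. Pfkp ran opposite, at -0.864. These values are descriptions, and the points share the array platform and the scaling of RMA.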

How the data were processed

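Expression was measured in 12 pools of sorted mouse muscle stem cells on 21 Affymetrix Mouse Gene 1.0 ST arrays. The authors deposited log2 signals per probeset. RMA and Affymetrix Expression Console are the tools named, per the submitters' processing notes. Neither version, library files nor genome build is given in the sources used here. The platform table lists 1 symbol for 21789 of the 35556 probesets, several for 1621 and none for 12146, and only the first group was named. A gene took its brightest probeset, arrays of a pool were averaged, and genes whose mean signal was below the 30th percentile (log2 6.45) were not tested. The number of arrays and pools limits the precision.

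A mean per group was fitted with lmFit and eBayes (limma 3.58.1, R 4.3.3) over the 12 pools, with Benjamini-Hochberg adjustment over 13956 genes. The spread rests on the WT pools alone, with 4 residual degrees of freedom (prior 5.01, moderated 9.01). The labels give no batch, and p-values measure the spread between these pools. The fit was tested on simulated data. Members and gene lists were chosen with earlier results of these data known. Named genes are the members, up to 5 genes of each list that rose or fell most past the threshold in WT CSC at 2.5 days (3 in other comparisons), the 8 most like Eno3, and markers. A p is given for a member only where no WT pool enters the means compared. Promoter sequences are from RefSeq, and all 10 members had one. Alternatives were another normalization, centring, filters, probeset means, other variance and array models, leaving out WT pools and a replicate block. Leaving out 3 second arrays, and the other Hk1 probeset, were added after seeing the data. Figures were drawn with matplotlib 3.10.9.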

Additional observations from a re-analysis of the deposited data

Results flagged for a closer look

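For 5 genes that passed in WT, the arrays of a knockout's contralateral pool lay wholly on the opposite side of its noninjured pool. In the Rptor KO these were Pfkl, at -0.248 against 0.69 in WT, and Gys1, at -0.204 against 0.96. In the cMet KO they were Gys1 at -0.152, Chrna1 at -0.173 against 1.26, P4ha1 at 0.0715 against -0.68, and Mef2c at 0.224 against -0.58. Each knockout arm is 1 pool on 2 arrays. The difference between responses did not pass the test in any of these 6 cases (limma, lowest adjusted p = 0.208, for Chrna1).

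Between TSC1 KO QSC and Rptor KO QSC, Myh8 (1.56 ± 0.28, limma, adjusted p = 0.0383) and Myl4 (2.95 ± 0.38, adjusted p = 0.0157), 2 genes of developing muscle, passed the test in 1 pool against 1.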

How the results depend on the processing

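Eno3 kept its direction in every comparison and alternative run. It ranged from 3.44 to 3.71 in WT CSC at 2.5 days, -0.79 to -0.51 at 28 days, 0.81 to 1.08 in TSC1 KO QSC, 1.36 to 1.58 in the Rptor KO response and 0.77 to 0.80 in the cMet KO response. The number of the 9 genes past the threshold in WT CSC was 5, all higher, beside 10.6% of all genes higher and 18.0% in either direction. It ran from 3 to 5 when 1 WT pool was left out, with 3 without WT CSC replicate 3. Aldoa fell short of the threshold without WT CSC replicate 1 or 3, and Ldha without replicate 2 or 3. These counts are a description because the list was chosen with this comparison, and nothing is read from them. With all arrays and the pool as a random block, which counts repeat arrays of 1 pool as observations, Eno3 passed in the Rptor KO response (1.37, adjusted p = 0.00737) and between TSC1 KO QSC and Rptor KO QSC (1.22, 0.00478). With the first array of each pool alone the latter difference was 1.31. No WT pool enters its means or those of the Rptor KO and cMet KO responses. Leaving out a WT pool could therefore change only the spread of these differences and not their size or direction. Some differences that were near 0 in the main fit changed sign, the cause not tested. In WT CSC at 2.5 days Pfkm ran from -0.278 to 0.118 and Hk2 from -0.176 to 0.273. Between TSC1 KO QSC and Rptor KO QSC, Ldha was at 0.106 with centred arrays, 0.176 with first arrays and 0.211 without 3 second arrays. Hk1 between these 2 knockouts was at 0.0657 with repeated quantile normalization and 0.0972 with centred arrays. It was at 0.455 with the mean of probesets and 0.927 on the other probeset. Those last values read, in part or alone, a probeset that correlated with the brightest at -0.22. In the cMet KO response Hk1 was at 0.14 with first arrays.

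The count of all genes passing in WT CSC, 2510, ran from 1194 without WT CSC replicate 3 to 3606 with the random block. It ran from 15 to 112 (main 36) in the Rptor KO response, 16 to 1271 (216) between TSC1 and Rptor KO QSC, 1 to 231 (2) in TSC1 KO QSC, 2 to 235 (17) in Rptor KO QSC, 0 to 52 (0) at 28 days, 0 to 2 (0) in each cMet KO comparison, and 0 to 49 (0) and 0 to 357 (22) for the Rptor and cMet response differences. Higher calls between TSC1 and Rptor KO QSC made up 81.5%, and 67.0% with repeated quantile normalization, while the median of all genes moved from 0.05 to 0.16 when arrays were centred. With the replicate number as a block, Eno3 stood at 3.59, and 2796 of all genes passed. Same-numbered WT pools correlated in their deviations at 0.32, -0.03 and -0.03 and were not taken as pairs.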
